A study of Mus musculus with 12 samples.

Results

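The costimulatory and checkpoint ligands described here are 10 surface or secreted molecules through which macrophages instruct T cells and other macrophages: Cd274, Pdcd1lg2, Cd80, Cd86, Cd40, Icosl, Vsir, Havcr2, Sirpa and Lgals9. They were found by matching the Ensembl identifiers of the deposited count tables to mouse gene symbols, which gave 10 genes of the 56941 in the tables. RNA was sequenced from bone marrow-derived macrophages of C57BL/6J mice, either wild-type (WT) or lacking miR-210 (miR-210 KO), a microRNA induced by low oxygen. The KO mice descended from a cross of miR-210 floxed animals with Gata-1 Cre animals, and WT and KO mice came from breeding heterozygotes, so the deletion was not limited to macrophages. Monocytes isolated from bone marrow were differentiated for 7 days in medium conditioned by L929 cells, a fibroblast line that secretes M-CSF, which gave M0 macrophages. IL-4 at 20 ng/mL was then given for 72 hours to make M2 macrophages, while M0 wells were kept without it.

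The 12 libraries formed 4 groups of 3, with M0 and M2 macrophages of either genotype. Each group carries a different batch label, which means that group and batch cannot be told apart, and the labels do not say whether the 3 samples of a group came from separate animals. P values therefore measure the spread between these samples, which may be technical. Library totals lay between 7930525 and 10167695 counts. For Mir210, the counts of single WT libraries ran from 1 to 5, and all miR-210 KO libraries had 0. The macrophage markers Csf1r, Adgre1, Cd68, Itgam, Lyz2, Mertk and Fcgr1 were summed in CPM (counts scaled to a common library size). The sum lay between 8784 and 9892 CPM in the M0 libraries and between 7244 and 7996 CPM in the M2 libraries. Lyz2 was the largest part, with means of 5197 CPM in WT M0 and 3971 CPM in WT M2. From WT M0 to WT M2, Fcgr1 went from 498 to 63.0 CPM, Mertk from 202 to 79.5 CPM and Itgam from 278 to 422 CPM. Of the M2 markers, Arg1 averaged 41.0 CPM in WT M0 and 1872 CPM in WT M2, and Mrc1 averaged 1714 and 2609 CPM. In miR-210 KO, Arg1 averaged 74.1 CPM in M0 and 1920 CPM in M2, and Mrc1 averaged 1660 and 3044 CPM. By the rule given below, Arg1 was called higher in miR-210 KO M0 than in WT M0, and Mrc1 was not called. Retnla had 0 counts in every M0 library and averaged 428 CPM in WT M2 and 377 CPM in miR-210 KO M2, and Chil3 averaged 0.13 CPM in WT M0 and 1727 CPM in WT M2.

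A T cell needs a signal through its antigen receptor and a further signal from the cell that presents the antigen. CD80 and CD86 give that further signal through CD28 and are also bound by the inhibitory receptor CTLA-4, ICOS ligand acts through ICOS, and CD40 receives help from T cells that carry CD40 ligand. PD-L1 and PD-L2 bind the inhibitory receptor PD-1, and VISTA, TIM-3, galectin-9 and SIRPα form further brakes on T cells or on engulfment. IL-4 acts in macrophages through STAT6, and PD-L2 is a known product of macrophages activated in this way.

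The sequence before the start of Pdcd1lg2 is shown because this gene had the largest change of the 10, and that before Icosl because this gene had the largest decrease. Promoter sequences came from a RefSeq table of build GRCm38.p6, which held 7 of the 10 genes, and not Cd86, Cd40 or Sirpa. Each window matched GRCm39 once. Capitals mark matches to the STAT6 motif (TTC and GAA with 4 bases between) or the GAS motif (TTC and GAA with 3 bases between), searched on both strands, and the bases are those before the first annotated exon, on the plus strand at chr19:29388069-29388318 for Pdcd1lg2 and at chr10:77904952-77905135 for Icosl.
Pdcd1lg2: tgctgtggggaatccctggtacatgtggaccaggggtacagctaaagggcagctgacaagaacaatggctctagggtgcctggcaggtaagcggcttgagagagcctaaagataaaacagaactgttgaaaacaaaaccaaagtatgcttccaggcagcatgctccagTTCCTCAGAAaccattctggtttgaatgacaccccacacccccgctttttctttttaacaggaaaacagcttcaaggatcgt
Icosl: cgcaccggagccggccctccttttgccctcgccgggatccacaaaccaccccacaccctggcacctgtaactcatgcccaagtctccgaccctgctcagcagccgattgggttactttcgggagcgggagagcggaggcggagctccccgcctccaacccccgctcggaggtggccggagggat

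Of the 7 promoter windows, each reaching from 250 bases before the RefSeq start to 50 after it, 1 held a STAT6 match and 0 held a GAS match. The windows of Cd274 (chr19:29344588-29344887) and Cd80 (chr16:38279045-38279344) lay inside the gene coordinates given below. Of their 250 bases before the RefSeq start, 250 were exonic in Cd274 and 121 in Cd80. For these genes, sequence before the coordinates given below was therefore not searched. The STAT6 match was in Pdcd1lg2, at positions -82 to -73 from the start, and it overlapped a match to the PU.1 motif GAGGAA. Among 32851 mouse promoters of the same length, 6.953% held a STAT6 match, 8.298% a GAS match and 28.276% a PU.1 match. Lgals9 held 2 matches to the core of the interferon-stimulated response element (GAAA and GAAA with 2 bases between), which 3.443% of promoters hold, at positions -55 to -46 and 15 to 24. Lgals9 also held 2 PU.1 matches and Havcr2 held 1. The NF-kB motif (GGG and TTTCC with 2 bases between), found in 1.629% of promoters, had 0 matches in the 7 windows. A match describes letters in the window and is not a measured site.

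The mature strands of miR-210 are shown because their absence defines the KO, with the seed (bases 2 to 8) in capitals.
mmu-miR-210-3p: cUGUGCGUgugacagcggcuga
mmu-miR-210-5p: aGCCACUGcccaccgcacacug
The complement of the 3p seed, ACGCACA, was found in the 3′ UTR of 0 of the 10 genes, and in 6.279% of 11340 tested genes with an annotated 3′ UTR. The complement of the 5p seed, CAGTGGC, occurred in 1 of the 10, Vsir, and in 25.353% of the tested genes. Vsir held it at 3 places of its 3745-base 3′ UTR, which start at positions 609, 804 and 1729 and are shown in that order with the complement in capitals.
Vsir, site at 609: gccgtccacagagctCAGTGGCcagaggct
Vsir, site at 804: ctattcagtgtggagCAGTGGCaaaggtga
Vsir, site at 1729: gaactgccagctgttCAGTGGCagggctgt

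With IL-4, 8 of the 10 ligands changed in WT macrophages and 8 of 10 in miR-210 KO macrophages. Pdcd1lg2, Cd274 and Cd80 rose, Icosl, Lgals9, Cd86, Havcr2 and Vsir fell, and Cd40 and Sirpa did not pass the test, in each genotype. A gene was called when edgeR's quasi-likelihood test with Benjamini-Hochberg (BH) adjustment over all genes tested gave an adjusted p under 0.05 with a change over 1.2-fold (0.263 on the log2 scale), and, for the change with IL-4, when it coded for a protein and its normalized count averaged over 10. By that rule 35.4% of the 14266 genes tested were called in WT (18.4% higher and 17.0% lower) and 28.4% of 14331 in miR-210 KO (14.3% higher and 14.0% lower). Among protein-coding genes over that average count the shares were 45.4% and 36.6%. The median absolute log2 fold change of the 10 was 0.73 in WT and 0.76 in miR-210 KO, against 0.30 and 0.26 over all genes tested. The median signed log2 fold change was -0.22 and -0.18, against -0.00 and -0.01 over all genes tested. For 8 of the 10, the 3 M2 libraries all lay above or all below the 3 M0 libraries in each genotype, as they did for 57.0% of genes tested in WT and 46.6% in miR-210 KO.

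**Figure D1:**
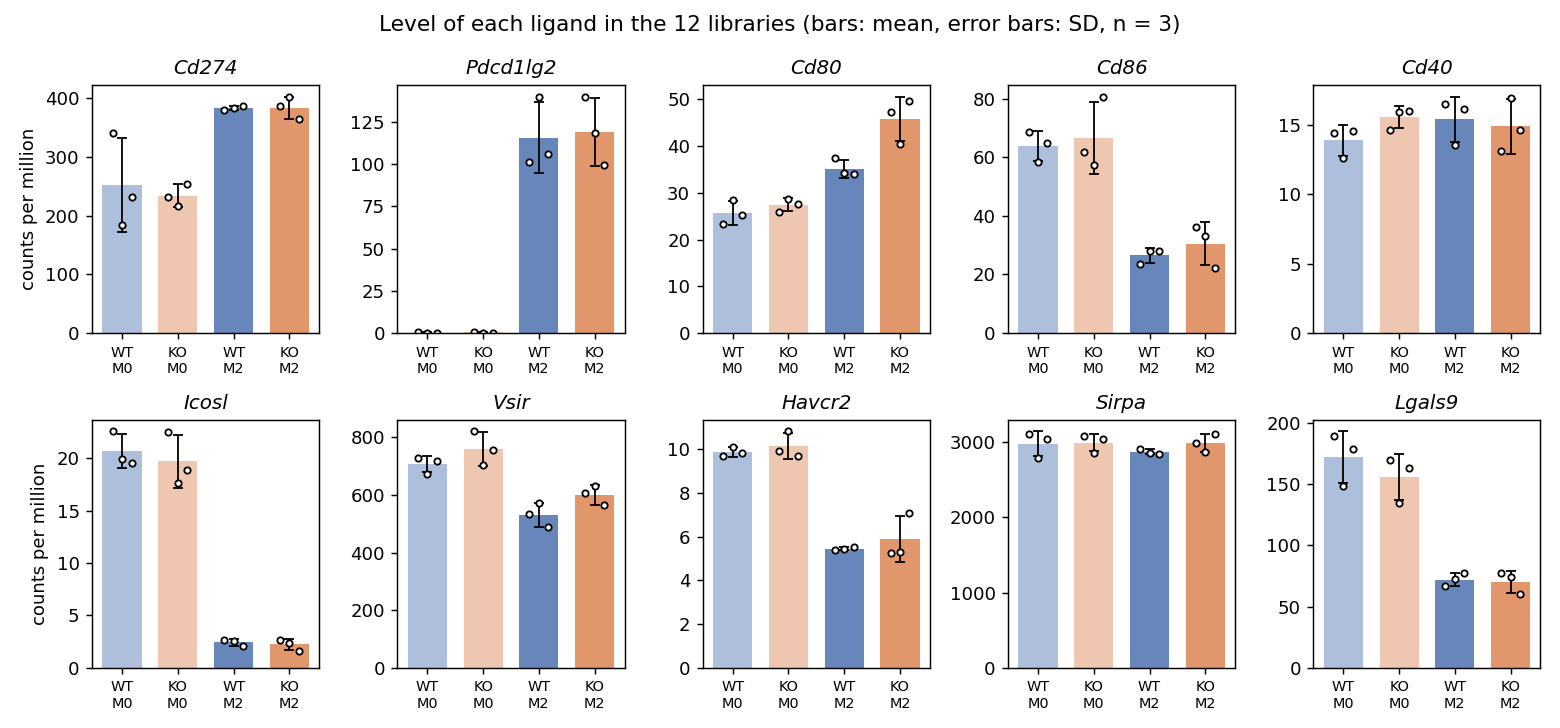
Level of the 10 ligands in each of the 12 libraries, in CPM on a linear axis from 0, with bars for the mean of 3 libraries, error bars for the SD and points for libraries. Pdcd1lg2 was at most 0.558 CPM in the M0 libraries and between 99.8 and 140.0 CPM in the M2 libraries, while Icosl fell from between 17.7 and 22.6 CPM to between 1.62 and 2.69 CPM.

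Cd274 (ENSMUSG00000016496, GRCm39 chr19:29344529-29365495, plus strand) encodes PD-L1, a ligand of PD-1 found on many cell types. It had 341, 185 and 231 CPM in WT M0 and 379.7, 383 and 387 CPM in WT M2, and 232, 216 and 254 CPM in miR-210 KO M0 and 386, 401 and 364 CPM in miR-210 KO M2. All M2 libraries lay above all M0 libraries of the same genotype, and WT M0 was the most spread of the 4 groups (252 ± 80.3 CPM, SD, n = 3). The log2 fold change with IL-4 was 0.62 ± 0.15 (SE) in WT (edgeR, BH-adjusted p = 0.00462) and 0.73 ± 0.08 in miR-210 KO (edgeR, BH-adjusted p = 1.70e-05). Leaving out any 1 library in turn, the WT value lay between 0.44 and 0.89 and stayed called.

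Pdcd1lg2 (ENSMUSG00000016498, chr19:29388319-29448882, plus strand), the gene 22823 bases downstream of Cd274, encodes PD-L2, whose expression is largely limited to macrophages, dendritic cells and some B cells. In WT it had 3, 2 and 2 counts in the M0 libraries and 864, 1338 and 865 counts in the M2 libraries. In miR-210 KO it had 5, 3 and 1 counts in M0 and 1147, 1140 and 801 counts in M2. The M0 libraries thus lay near the floor of 3 counts, the limit that an observed 0 allows, and the M2 libraries of both genotypes stood far above them. Summed over the libraries of a group, 7 counts in WT M0 and 3067 in WT M2 gave a ratio of 449, with an exact 95% binomial interval of 218 to 1118 that covers counting error only. The ratio was 384 (202 to 841) in miR-210 KO, from 9 and 3088 counts. The fitted log2 fold change was 8.76 ± 0.24 in WT (edgeR, BH-adjusted p = 9.31e-12) and 8.56 ± 0.25 in miR-210 KO (edgeR, BH-adjusted p = 1.06e-10).

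The ratio of Pdcd1lg2 to Cd274, each as CPM per kb of exon, was far higher in M2 than in M0. In WT it was 0.00201, 0.00200 and 0.00155 in M0 and 0.476, 0.654 and 0.491 in M2. In miR-210 KO it was 0.00430, 0.00240 and 0.00070 in M0 and 0.649, 0.527 and 0.490 in M2. The M2 values of the genotypes overlapped, and the M0 values rest on 1 to 5 counts of Pdcd1lg2.

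The protein-coding neighbours of this pair were read as well. Plgrkt, a plasminogen receptor gene on the opposite strand whose exons overlap the first exon of Cd274, averaged 78.7 CPM in WT M0 and 78.7 CPM in WT M2, a log2 fold change of 0.02 ± 0.08 (edgeR, BH-adjusted p = 0.900). Ric1, downstream of Pdcd1lg2, averaged 126 CPM in WT M0 and 196 CPM in WT M2. Its log2 fold change was 0.65 ± 0.07 in WT (edgeR, BH-adjusted p = 7.17e-06) and 0.54 ± 0.08 in miR-210 KO (edgeR, BH-adjusted p = 0.000175). Within this stretch of chromosome 19, the 3 genes on the plus strand rose with IL-4 and Plgrkt was not called. The counts were made per strand, so reads of Plgrkt and Cd274 were counted apart.

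**Figure D2:**
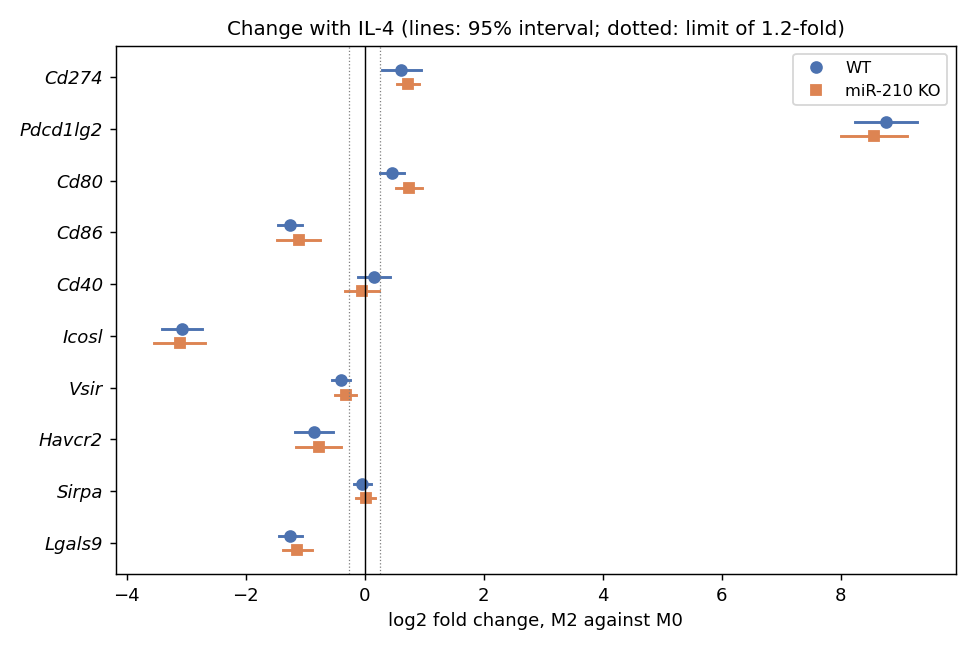
Log2 fold change of M2 against M0 for the 10 ligands in WT (circles) and miR-210 KO (squares), with 95% intervals and dotted lines at a change of 1.2-fold. Pdcd1lg2 stands at 8.76 and 8.56, Icosl at -3.06 and -3.11, and the intervals of Cd40 and Sirpa include 0.

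The ligands of CD28 and CTLA-4 moved in opposite directions. Cd80 (ENSMUSG00000075122, chr16:38275923-38316697, plus strand) encodes B7-1 and had 23.3, 28.5 and 25.3 CPM in WT M0 and 37.4, 34.2 and 33.9 CPM in WT M2. In miR-210 KO it had 26.0, 28.8 and 27.6 CPM in M0 and 47.4, 40.4 and 49.6 CPM in M2. The M2 libraries lay above the M0 libraries in both genotypes, with log2 fold changes of 0.46 ± 0.10 in WT (edgeR, BH-adjusted p = 0.00134) and 0.75 ± 0.10 in miR-210 KO (edgeR, BH-adjusted p = 7.03e-05). Cd86 (ENSMUSG00000022901, chr16:36424044-36486443, minus strand) encodes B7-2, the other ligand of the pair. It had 68.6, 58.4 and 64.7 CPM in WT M0 and 23.4, 27.9 and 28.0 CPM in WT M2, and 61.8, 57.3 and 80.6 CPM in miR-210 KO M0 and 36.1, 33.0 and 22.2 CPM in miR-210 KO M2. No M2 library reached the lowest M0 library of its genotype. Its log2 fold change was -1.26 ± 0.09 in WT (edgeR, BH-adjusted p = 1.02e-07) and -1.11 ± 0.17 in miR-210 KO (edgeR, BH-adjusted p = 0.000199).

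Per length of exon, Cd86 stood above Cd80 in every M0 library and below it in every M2 library. In WT the ratio of Cd86 to Cd80 was 3.16, 2.20 and 2.74 in M0 and 0.671, 0.876 and 0.887 in M2. In miR-210 KO the M0 values were 2.55, 2.14 and 3.13 and the M2 values 0.819, 0.877 and 0.480. The values of the genotypes overlapped within M0 and within M2.

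**Figure D3:**
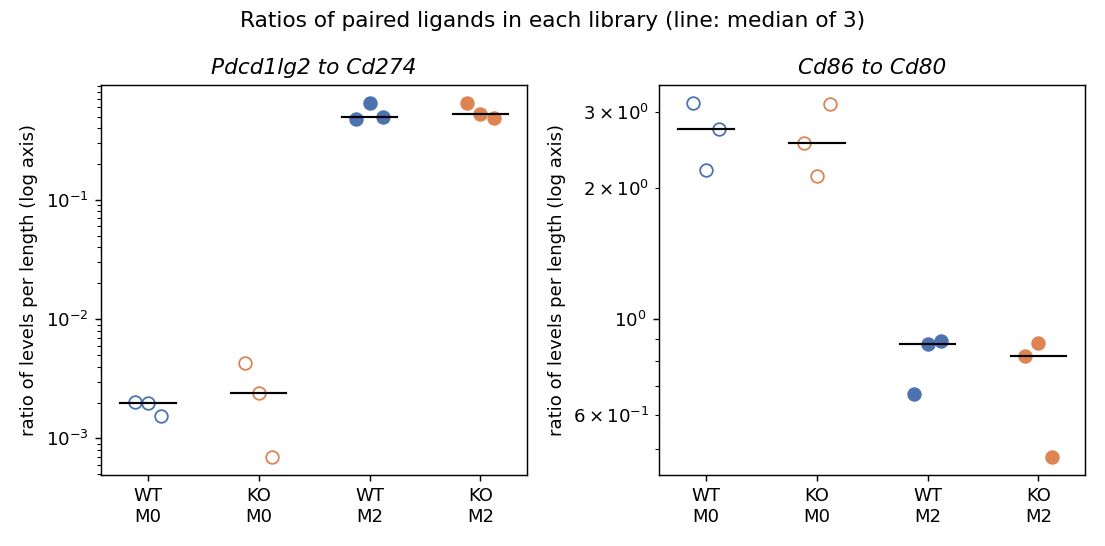
Ratio of levels per length, Pdcd1lg2 to Cd274 (left) and Cd86 to Cd80 (right), in each library on log axes, with a line at the median of 3 libraries; open points are M0 and filled points M2. The median of Cd86 to Cd80 went from 2.74 to 0.876 in WT and from 2.55 to 0.819 in miR-210 KO.

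Icosl (ENSMUSG00000000732, chr10:77905136-77919747, plus strand), which encodes the ligand of ICOS, a receptor induced on activated T cells, had the largest fall. It had 22.6, 19.9 and 19.6 CPM in WT M0 and 2.69, 2.51 and 2.09 CPM in WT M2, and 22.5, 17.7 and 18.9 CPM in miR-210 KO M0 and 2.69, 2.39 and 1.62 CPM in miR-210 KO M2. The M2 libraries still held 13 to 24 counts each, well over the limit of 3. The level fell 8.35-fold in WT (log2 fold change -3.06 ± 0.16; edgeR, BH-adjusted p = 2.84e-09) and 8.62-fold in miR-210 KO (-3.11 ± 0.20; edgeR, BH-adjusted p = 8.34e-08). Cd40 (ENSMUSG00000017652, chr2:164897544-164914868, plus strand) encodes the receptor through which helper T cells activate macrophages. It had 14.4, 12.6 and 14.6 CPM in WT M0, 16.5, 13.5 and 16.1 CPM in WT M2, 14.6, 15.9 and 16.0 CPM in miR-210 KO M0 and 13.1, 16.9 and 14.6 CPM in miR-210 KO M2. Neither genotype separated M0 from M2, and the log2 fold changes with IL-4 were 0.16 (95% interval -0.11 to 0.43; edgeR, BH-adjusted p = 0.317) in WT and -0.04 (-0.33 to 0.25; edgeR, BH-adjusted p = 0.848) in miR-210 KO.

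Lgals9 (ENSMUSG00000001123, chr11:78853800-78875798, minus strand) encodes galectin-9, a carbohydrate-binding protein that is a ligand of TIM-3. It had 189, 149 and 179 CPM in WT M0 and 66.6, 72.1 and 77.0 CPM in WT M2, and 169.8, 135 and 163 CPM in miR-210 KO M0 and 77.2, 73.9 and 60.2 CPM in miR-210 KO M2. The M2 libraries all lay below the M0 libraries, and the log2 fold change was -1.25 ± 0.09 in WT (edgeR, BH-adjusted p = 8.59e-08) and -1.13 ± 0.11 in miR-210 KO (edgeR, BH-adjusted p = 5.56e-06). Havcr2 (ENSMUSG00000020399, chr11:46345673-46374149, plus strand), which encodes TIM-3 itself, is known on exhausted T cells and also on myeloid cells. Its levels were 9.69, 10.1 and 9.84 CPM in WT M0, 5.38, 5.44 and 5.53 CPM in WT M2, 9.93, 10.8 and 9.70 CPM in miR-210 KO M0 and 5.25, 5.30 and 7.10 CPM in miR-210 KO M2. The Havcr2 level thus fell together with that of Lgals9, by 0.85 ± 0.15 on the log2 scale in WT (edgeR, BH-adjusted p = 0.000311) and by 0.77 ± 0.17 in miR-210 KO (edgeR, BH-adjusted p = 0.00377).

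Vsir (ENSMUSG00000020101, chr10:60182630-60208463, plus strand) encodes VISTA, an inhibitory member of the B7 family carried by resting myeloid cells. It had 729.6, 674 and 718 CPM in WT M0 and 535, 571 and 488 CPM in WT M2, and 820.2, 703 and 756 CPM in miR-210 KO M0 and 606, 631 and 564 CPM in miR-210 KO M2. The decrease was smaller than those of Lgals9 and Icosl but separated the groups, with log2 fold changes of -0.40 ± 0.07 in WT (edgeR, BH-adjusted p = 0.000397) and -0.32 ± 0.08 in miR-210 KO (edgeR, BH-adjusted p = 0.00839). Without miR-210 KO M0 library 1, the miR-210 KO value was -0.26 (edgeR, BH-adjusted p = 0.0244), just under the limit on the fold change. Sirpa (ENSMUSG00000037902, chr2:129434039-129474148, plus strand) encodes SIRPα, the macrophage receptor that reads CD47 on other cells and restrains engulfment. It had 3103, 2790.3 and 3039 CPM in WT M0, 2908, 2862 and 2847 CPM in WT M2, 3077, 2861 and 3043 CPM in miR-210 KO M0 and 2989, 2873 and 3107 CPM in miR-210 KO M2. The groups overlapped, and the 95% interval of the log2 fold change with IL-4 was -0.19 to 0.11 in WT (edgeR, BH-adjusted p = 0.657) and -0.14 to 0.17 in miR-210 KO (edgeR, BH-adjusted p = 0.894).

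Levels of different genes were set side by side only as CPM per kb of exon. In WT M0 the order was Sirpa (425 ± 23.6, SD, n = 3), Vsir (141 ± 5.82), Lgals9 (75.8 ± 9.17), Cd274 (61.8 ± 19.7), Cd86 (16.6 ± 1.34), Cd80 (6.22 ± 0.629), Icosl (4.48 ± 0.353), Cd40 (4.06 ± 0.322), Havcr2 (2.03 ± 0.0440) and Pdcd1lg2 (0.115 ± 0.0452). In WT M2 Sirpa (410.5 ± 4.56) and Vsir (106 ± 8.23) still led, Cd274 was next at 93.9 ± 0.908, and Pdcd1lg2 had gone from rank 10 to rank 4 at 50.8 ± 9.26. Icosl was last at 0.526 ± 0.0667, below Havcr2 at 1.12 ± 0.0157. The order in miR-210 KO M2 was the same as in WT M2, and that in miR-210 KO M0 differed from WT M0 in the places of Cd40 (4.55 ± 0.229) and Icosl (4.26 ± 0.548), whose levels overlapped. Per kb of the longest transcript that difference was not seen, since Icosl (7.001) stood above Cd40 (5.19) in miR-210 KO M0 as in WT M0 (7.35 and 4.63). With that length Sirpa went from 425 to 650 in WT M0. Across the 4 groups, the 8 ligands called with IL-4 had both M2 groups on 1 side of both M0 groups. Groups of different genotype within M0 or M2 overlapped for each of these 8 except Cd80 in M2.

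**Figure D4:**
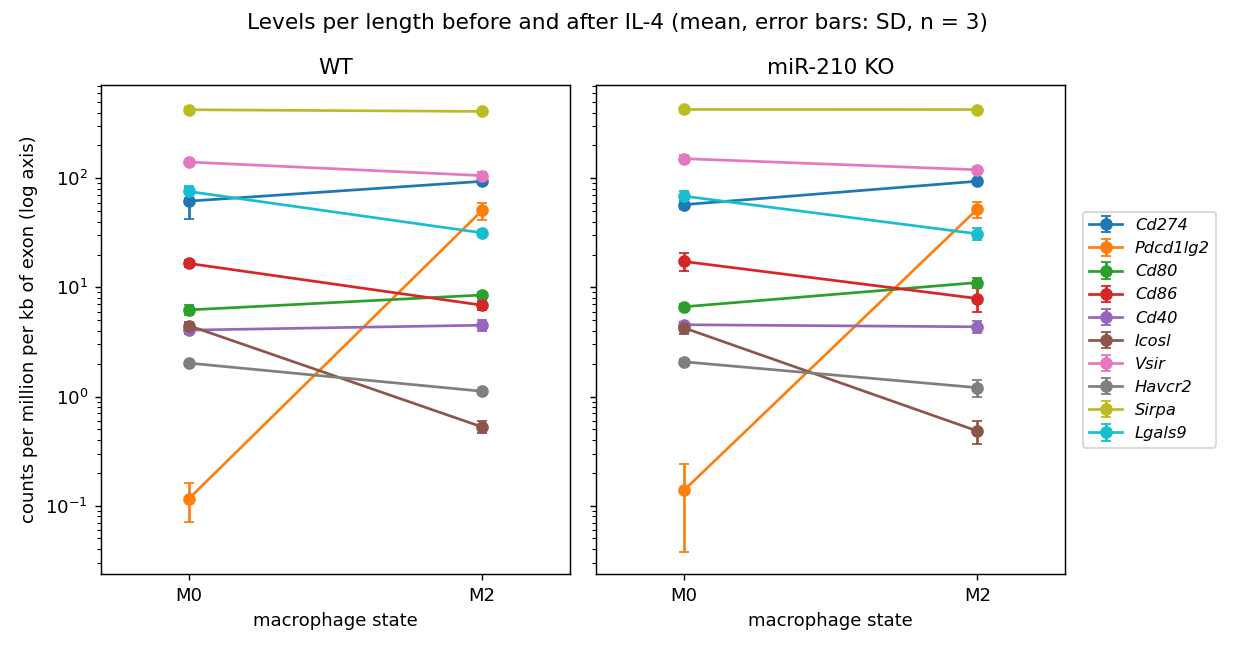
Mean level per kb of exon in M0 and M2 for WT (left) and miR-210 KO (right) on a log axis, with error bars for the SD of 3 libraries. The line of Pdcd1lg2 crosses those of 6 other ligands in each genotype, and the lines of Cd80 and Cd86 cross each other.

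Between genotypes, 0 of the 10 ligands were called. In M0, 9 were tested, since Pdcd1lg2 was under the filter on low counts, and 0 were called by edgeR, 0 had an unadjusted p under 0.05 and 0 were called by DESeq2, while 0.461% of the 14089 genes tested were called. In M2, 10 were tested and 0 were called by edgeR or by DESeq2, 2 had an unadjusted p under 0.05, and 0.980% of 13980 genes were called. In M0 the log2 fold changes of miR-210 KO against WT lay between -0.16 (Lgals9, 95% interval -0.41 to 0.09) and 0.15 (Cd40, -0.12 to 0.43). Between these lay Vsir (0.09), Cd86 (0.05), Havcr2 (0.02), Sirpa (-0.01) and Icosl (-0.08). The widest M0 interval was that of Cd274, -0.50 to 0.26. Libraries did not overlap for 1 ligand of 9 in M0, Cd40, which was higher in miR-210 KO, and for 1 of 10 in M2, Cd80, against 15.0% and 16.1% of genes tested.

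Cd80 had the largest difference in M2. All miR-210 KO M2 libraries (45.8 ± 4.79 CPM, SD, n = 3) lay above all WT M2 libraries (35.2 ± 1.94 CPM), with a log2 fold change of 0.38 (95% interval 0.19 to 0.57; edgeR, BH-adjusted p = 0.0577), which missed the threshold. Without miR-210 KO M2 library 2 it passed, at 0.46 (edgeR, BH-adjusted p = 0.0372), and with no filter on low counts it passed at 0.38 (edgeR, BH-adjusted p = 0.00332). Of the 6 fits without 1 library, 5 did not call Cd80 (edgeR, BH-adjusted p up to 0.249). Nor did 5 of 7 other settings at the same fold limit. In M0 the difference was 0.08 (-0.15 to 0.31). Cd86 was next in M2, at 0.21 (-0.09 to 0.50; edgeR, BH-adjusted p = 0.653), with libraries that overlapped. Vsir was at 0.18 (0.05 to 0.31; edgeR, BH-adjusted p = 0.264), with 2 of the 3 miR-210 KO libraries above all WT libraries. For the PD-1 ligands the M2 intervals were -0.11 to 0.12 (Cd274) and -0.21 to 0.29 (Pdcd1lg2), and Sirpa lay between -0.04 and 0.16. The intervals were wider for Havcr2 (-0.27 to 0.48) and Icosl (-0.67 to 0.44). Lgals9 was at -0.03 (-0.21 to 0.16) and Cd40 at -0.03 (-0.31 to 0.24).

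**Figure D5:**
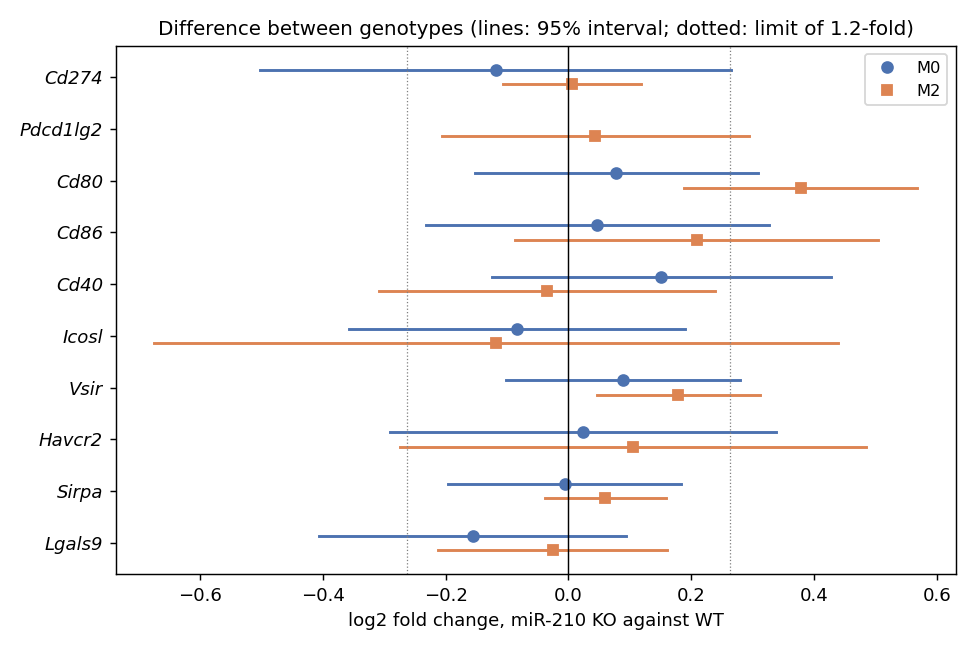
Log2 fold change of miR-210 KO against WT for the 10 ligands in M0 (circles) and M2 (squares), with 95% intervals and dotted lines at 1.2-fold; Pdcd1lg2 was not tested in M0. The M2 intervals of Cd80 (0.19 to 0.57) and Vsir (0.05 to 0.31) lie above 0, and the other intervals include it.

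The interaction of genotype and polarization asks whether the change with IL-4 differed between genotypes. Of the 10 ligands 0 were called by edgeR or by DESeq2, and 1, Cd80, had an unadjusted p under 0.05. Over all 14825 genes tested edgeR called 0 (0%), with 1327 at an unadjusted p under 0.05, and DESeq2 called 72. For Cd80 the change in miR-210 KO exceeded that in WT by 0.30 on the log2 scale (95% interval 0.00 to 0.59; edgeR, BH-adjusted p = 0.554). For Cd274, Cd86, Vsir and Lgals9 the differences were 0.12, 0.16, 0.09 and 0.12, each with an interval that included 0. Havcr2 (0.08), Sirpa (0.06), Icosl (-0.04) and Cd40 (-0.19, -0.57 to 0.18) also had differences with intervals that included 0. That of Pdcd1lg2 was -0.20 (-2.08 to 1.68), a wide interval since few counts stood behind M0.

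T cells carry the partners of these ligands, and the macrophages held reads of few of them. Of 9 T cell receptor genes, Ctla4, Pdcd1 and Cd40lg had 0 counts in all 12 libraries, which allows up to 0.295 CPM in the deepest library. Btla and Tigit had 1 count in all, Icos 0 to 3 a library, Lag3 0 to 4 and Cd226 0 to 6. Cd28, the receptor of CD80 and CD86, was the exception, with means of 33.1 CPM in WT M0, 61.1 CPM in WT M2, 28.9 CPM in miR-210 KO M0 and 78.6 CPM in miR-210 KO M2. It rose by 0.90 ± 0.13 on the log2 scale in WT (edgeR, BH-adjusted p = 5.00e-05) and by 1.46 ± 0.11 in miR-210 KO (edgeR, BH-adjusted p = 2.78e-07). The difference between these changes was 0.57 (edgeR, BH-adjusted p = 0.302). Among T and NK cell markers, Cd3e, Cd3g and Ncr1 had 0 counts in all libraries, and Cd3d and Cd8a had at most 2 counts a library. Cd4 averaged 4.31 CPM in WT M0, 1.67 CPM in WT M2, 2.36 CPM in miR-210 KO M0 and 1.11 CPM in miR-210 KO M2. It was called lower with IL-4 in WT and in miR-210 KO (edgeR, BH-adjusted p = 0.00116 and 0.0454).

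Dendritic cells also carry many of these ligands, so their markers were read beside them. The 7 dendritic cell markers summed to between 0.826 and 1.67 CPM in the M0 libraries and between 11.1 and 19.4 CPM in the M2 libraries. Zbtb46 made up most of the M2 sum, with means of 14.8 CPM in WT M2 and 10.96 CPM in miR-210 KO M2. Flt3 had 0 counts in the M2 libraries, and Cd209a, Xcr1, Clec9a, Dpp4 and Ccr7 averaged at most 0.921 CPM in any group. The part of Zbtb46-expressing cells in these results was not tested, and in bulk RNA more cells of a type and more RNA per cell cannot be told apart. B cell markers summed to between 5.90 and 10.22 CPM, of which Cd79b made up most, while Ms4a1 had 0 counts. Neutrophil, erythroid and fibroblast markers each summed to at most 4.61 CPM in any library.

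Of 27 other surface ligands, 15 were tested in WT and 14 in miR-210 KO for the change with IL-4. In WT 5 rose and 4 fell, and in miR-210 KO 4 rose and 4 fell, while 35.4% and 28.4% of all genes tested were called. Cd276, a B7 family gene that encodes B7-H3, was called higher in WT M2 (edgeR, BH-adjusted p = 5.10e-06), with 5 counts summed over the WT M0 libraries, too few for a firm fold change, and 66 over the WT M2 libraries. Lgals3, a further galectin gene, rose from 1831 to 3188 CPM (0.81 ± 0.09; edgeR, BH-adjusted p = 8.50e-06) while Lgals9 fell, and Ceacam1 (0.58 in WT and 0.33 in miR-210 KO) and Lgals1 (0.55 and 0.42) rose as well. Cd200 rose by 0.85 in WT, and its log2 fold change in miR-210 KO was 0.29 (edgeR, BH-adjusted p = 0.414). Tnfsf9, which encodes the 4-1BB ligand, fell by 2.55 ± 0.29 on the log2 scale in WT (edgeR, BH-adjusted p = 6.47e-06) and by 1.91 ± 0.22 in miR-210 KO (edgeR, BH-adjusted p = 2.17e-05). Tnfsf15 fell by 1.45 in WT and by 1.49 in miR-210 KO, and Tnfrsf14, a ligand of BTLA, by 0.58 and 0.63. Cd47, the ligand of SIRPα, fell from 863 to 594 CPM in WT (log2 fold change -0.53 ± 0.06; edgeR, BH-adjusted p = 1.16e-05) while Sirpa did not pass the test. In miR-210 KO against WT, 0 of these genes were called in M0 or M2 by edgeR.

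Among 18 signalling partners of the ligands, 5 rose and 7 fell in WT, and 2 rose and 6 fell in miR-210 KO. The share called over all genes tested was 35.4% in WT and 28.4% in miR-210 KO. Traf5, an adaptor of CD40, rose from 10.3 to 43.6 CPM in WT (log2 fold change 2.08 ± 0.10; edgeR, BH-adjusted p = 2.05e-09) and by 2.06 ± 0.14 in miR-210 KO, and Nfkb1 rose by 0.93 and 0.80. Nfkb2 and Relb, of the noncanonical NF-kB pathway, rose by 0.72 and 0.57 in WT, and had log2 fold changes of 0.34 and 0.08 in miR-210 KO (edgeR, BH-adjusted p = 0.1204 and 0.587). Fyb1, an adaptor that SIRPα binds together with SKAP2, fell by 1.39 ± 0.10 in WT (edgeR, BH-adjusted p = 6.45e-08) and by 1.26 ± 0.10 in miR-210 KO. Map3k14, the kinase of the noncanonical NF-kB pathway, fell by 1.03 and 0.60, Ptk2b by 0.74 and 0.53, and Cmtm4 by 0.32 and 0.45. Cmtm6, which protects PD-L1 protein from breakdown, fell by 0.69 ± 0.08 in WT (edgeR, BH-adjusted p = 1.13e-05) and had a log2 fold change of -0.27 in miR-210 KO (edgeR, BH-adjusted p = 0.0508). Whether these changes differed between genotypes was tested by the interaction, which called 0 of the 18 by edgeR, with 3 at an unadjusted p under 0.05.

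Of 17 genes of the pathways known to induce the ligands, 6 rose and 6 fell in WT, and 7 rose and 6 fell in miR-210 KO. Over all genes tested, 35.4% were called in WT and 28.4% in miR-210 KO. Socs1, a feedback inhibitor of JAK kinases, rose from 5.83 to 135 CPM in WT (log2 fold change 4.54 ± 0.12; edgeR, BH-adjusted p = 8.10e-12), and Irf4, a transcription factor downstream of IL-4, from 4.90 to 60.2 CPM (3.62 ± 0.16; edgeR, BH-adjusted p = 6.94e-10). Jak2 rose by 1.13 in WT and by 1.29 in miR-210 KO, and Ifngr1, a chain of the interferon-γ receptor, by 0.58 and 0.69. Socs3 fell by 0.96 and 1.45. The IL-4 receptor chains went different ways, since Il4ra fell by 0.99 in WT and 0.86 in miR-210 KO and Il13ra1 by 1.49 and 1.66, while Il2rg rose by 0.69 and 0.60. Stat6 was not called in either genotype (-0.04 and -0.02). Between genotypes, 0 of the 18 signalling partners and 0 of the 17 inducers were called in M0 or in M2 by edgeR.

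For each ligand the pair of genes with the most similar pattern was sought among 14825 genes, by Pearson's r of log2(CPM + 1) over the 12 libraries. M0 and M2 libraries form separate clusters for the called ligands, so r is a description. Pdcd1lg2 was closest to Gm8113 (r = 1.000) and Scn3a (0.999), Lgals9 to Ube2l6 (0.998) and A430108G06Rik (0.995), and Icosl to Mex3b (0.997) and Aif1 (0.996). Cd274 was closest to Gm30082 (0.977) and Il7r (0.973), Cd80 to Clcn5 (0.972) and Secisbp2l (0.969), and Cd86 to Alg1 (0.985) and Il10ra (0.983). Vsir was closest to Chst14 (0.991) and Carhsp1 (0.982), and Havcr2 to Adgb (0.987) and Gm26947 (0.984). Cd40 was closest to Dancr (0.888) and Gm9892 (0.805), and Sirpa to Kbtbd4 (0.859) and H2-T11-ps (0.858). The M0 and M2 libraries of Cd40 and Sirpa overlapped, so their lower r cannot be set against that of the called ligands.

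Shared sequence could split reads between genes. Of the 50-base stretches of the longest transcript, 1.77% in Cd274, 0.510% in Cd40 and 0.335% in Havcr2 also occurred in transcripts of other genes, and 0% in the remaining 7, Sirpa among them. Genes on the opposite strand overlapped Cd274 (Plgrkt and Gm36043), Pdcd1lg2 (A930007I19Rik), Cd80 (Timmdc1) and Vsir (Cdh23), and counting was by strand.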

How the data were processed

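RNA of 12 macrophage samples was sequenced after removal of ribosomal RNA, in stranded libraries read from both ends. Reads were trimmed by the authors (Trimmomatic), who removed duplicate reads (Picard), aligned the rest to GRCm39 (STAR) and made strand-aware counts per gene (featureCounts), and deposited the count values without normalization in 4 tables, of 2 groups each. Libraries held by more than 1 table had the same values in each (12 libraries compared, 0 values differing). The deposited tables of counts divided by size factors were not used here. Columns were assigned to groups by their names, and the numbers 1 to 3 that the columns carry are not tied to the sample names.

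Symbols, exons and coordinates came from GENCODE for GRCm39, which matched 56323 of 56941 identifiers. The members and lists were chosen with earlier results of these data known. Pairs of groups were tested on their 6 libraries in edgeR 4.0.16 by its quasi-likelihood test (R 4.3.3, TMM, filterByExpr by group, Benjamini-Hochberg adjustment over the genes tested), and the interaction on all 12 libraries. The study used the DESeq2 Wald test with these limits, which is an alternative here (DESeq2 1.42.0). The SE was taken as the absolute log2 fold change over the root of its F statistic. CPM were scaled by TMM over the 12 libraries, and levels per length divide them by the kb of all exons of a gene. Counts were also simulated with 200 genes changed by 1 on the log2 scale. By adjusted p alone, edgeR called 92.5% of them for WT M2 against WT M0 (12598 genes) and 71.5% for the interaction (12576 genes). Of the genes called, 5.13% and 4.03% were unchanged ones. Smaller changes were not simulated, so these shares do not give the recovery of smaller differences. The library totals, 7930525 to 10167695 counts, make 3 counts 0.295 to 0.378 CPM, which covers counting error only. Removing duplicate reads can lower the counts of abundant genes. Replicate libraries were further apart than sampling of reads alone gives (chi-square per gene 1.80 to 8.96).

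Named were the 10 ligands in every comparison, Mir210, the M2 markers, called genes of the other lists (up to 4 per list, direction and comparison by size), T cell receptor genes with counts, the 2 genes most like each ligand, and the neighbours of Cd274 and Pdcd1lg2. Other genes were named after their values were seen. Some genes of these lists are not reported here. The alternatives were DESeq2, other normalizations and filters on low counts, a fold limit of 1 on the log2 scale, the library number as a block, 1 fit over the 12 libraries, other lengths, and each library left out in turn.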

Additional observations from a re-analysis of the deposited data

How the results depend on the processing

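With IL-4, 8 ligands were called in each genotype under DESeq2, other normalizations and other filters on low counts. The same number was called in a fit of all 12 libraries and with the library number as a block, and 4 in each genotype at a log2 fold limit of 1. In the main fit 35.4% of all genes tested were called in WT and 28.4% in miR-210 KO. For the log2 fold limit of 1 the counts over all genes follow below, and for the other settings they are not reported here. Leaving out each library in turn gave 8 in WT and 7 to 8 in miR-210 KO. Over all genes it gave 4644 to 5022 called in WT and 3387 to 4117 in miR-210 KO. For miR-210 KO M2 against WT M2, with 0 called, Cd80 was called with no filter on low counts (1 ligand), with the library number as a block (1 ligand, 0.38; edgeR, BH-adjusted p = 0.0106) and in 1 of 6 fits without a library (0 to 1 ligands); the cause was not tested. In miR-210 KO M0 against WT M0 and in the interaction 0 ligands were called under every alternative run.

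Directions turned only among values that were not called. Without filter Sirpa was 0.0023 in miR-210 KO M0 against WT M0, and with library totals only it was -0.021 in miR-210 KO M2 against M0. Leaving out each library gave -0.16 to 0.045 for Cd40 and -0.028 to 0.037 for Sirpa in that comparison. In miR-210 KO M0 against WT M0 it gave -0.29 to 0.15 for Cd274, -0.12 to 0.15 for Cd86, -0.016 to 0.052 for Havcr2 and -0.041 to 0.035 for Sirpa. In miR-210 KO M2 against WT M2 it gave -0.029 to 0.042 for Cd274, -0.081 to 0.20 for Pdcd1lg2, -0.15 to 0.050 for Cd40, -0.25 to 0.053 for Icosl, -0.045 to 0.18 for Havcr2 and -0.092 to 0.072 for Lgals9. The interaction gave -0.16 to 0.29 for Cd274, -0.62 to 0.41 for Pdcd1lg2, -0.18 to 0.13 for Icosl and -0.080 to 0.15 for Havcr2.

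Over all genes, 65 were called in miR-210 KO M0 against WT M0, 219 by DESeq2, 532 with no filter, 248 in the fit of all libraries, 284 with the block and 27 at a log2 fold limit of 1. In M2 the count was 137, and 360 with no filter, 89 with at least 50 counts in 3 libraries, 60 in the fit of all libraries, 289 with the block and 40 at a log2 fold limit of 1. With IL-4 that limit left 1446 of 14266 genes tested in WT and 1292 of 14331 in miR-210 KO, against 5054 and 4065 in the main fit. The interaction called 0, 72 by DESeq2 and 341 with no filter. Leaving out each library gave 20 to 302 in M0, 53 to 215 in M2 and 0 to 77 for the interaction. Deviations of same-numbered libraries had r between -0.33 and 0.40, not over 0.1 for all 3 numbers in any comparison, and 0 to 3 of 6 libraries were closest to their own number. The numbers were therefore not taken as pairs. With the length of the longest transcript, 6 or 7 of the 10 levels per kb in each group moved by over 1 SD.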
